A study of Mus musculus with 4 samples.

Results

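The cells described here are CD8 T cells in which transcripts of Ifng, the gene of the effector cytokine interferon gamma, were caught at least 2 times. They were chosen by measured values: a cell entered with at least 500 genes, at most 10% of its UMIs on mitochondrial genes, at least 2 UMIs of Ifng, at least 1 UMI of Cd8a or Cd8b1, none of the B cell genes Cd79a and Ms4a1 and at most 1 UMI of the macrophage genes Csf1r and C1qb. A UMI (unique molecular identifier) marks 1 captured transcript, so that PCR copies are counted once. The rule took 570 of the 24893 cells of the series, and they are called Ifng cells below. They are set against the 19113 CD8 T cells of the same libraries that passed the same limits and had no Ifng UMI, called Ifng = 0 cells. The 2986 cells with 1 Ifng UMI belong to neither set. Since Ifng and the limits chose the cells, the genes of the rule carry no test.

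All cells came from mixed bone marrow chimeras on the C57BL/6 background. Rag1-/- mice, which make no T or B cells of their own, were irradiated with 400 rads and received WT (CD45.1) and Bcl3-/- (CD45.2) marrow at equal parts. After at least 6 weeks they were infected with 200000 PFU of LCMV Armstrong, and on day 8 p.i. splenic CD8+ T cells that bound the H-2Db-GP33 tetramer were sorted by their CD45 allele. The authors state that cells of both genotypes were sorted from the same animal. From the numbers in the library names, WT1 and KO1 were taken as chimera 1 and WT2 and KO2 as chimera 2, where KO stands for Bcl3-/-. There were thus n = 2 libraries per genotype, and comparisons within a chimera rest on this reading of the names. Host cells other than lymphocytes remain in such chimeras, the Bcl3 deletion is carried by every cell of its donor, and no control received marrow of a single genotype. The libraries totalled 21193300 and 20358780 UMIs in WT1 and WT2 and 22922219 and 22672343 UMIs in KO1 and KO2, but cells of WT2 were shallower, with medians of 3571, 2019, 3620.5 and 2948 UMIs per cell in the order WT1, WT2, KO1 and KO2. No Ifng cell shared its barcode with an Ifng cell of another library, and the numbers of cell barcodes shared between libraries, from 37 to 63 per pair, lay near those expected from independent draws.

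Interferon gamma is made by effector CD8 T cells after contact of the T cell receptor with antigen. Transcription starts within a short time of the signal, through NFAT, AP-1 and NF-kB factors, and falls again when contact ends, while the competence to transcribe the gene is set by T-bet and related factors. The chemokine genes Ccl3, Ccl4 and Xcl1 are known to be transcribed with Ifng after such contact, and the Nr4a and Egr genes are immediate early genes of the same signal. Bcl3 belongs to the nuclear IkB proteins, which bind DNA-bound NF-kB dimers and can raise or lower transcription of their targets.

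Ifng (ENSMUSG00000055170) lies on the plus strand at chr10:118441046-118445892, Ccl3 (ENSMUSG00000000982) on the minus strand at chr11:83647844-83649355, Ccl4 (ENSMUSG00000018930) on the plus strand at chr11:83662584-83664683, and Xcl1 (ENSMUSG00000026573) on the minus strand at chr1:164931644-164935527, in GRCm38 with GENCODE vM21 models. The counts come from the 3′ ends of the transcripts and carry no information on the promoters, which are shown because the 4 genes were chosen as markers of 1 cell state. The sources used here held no promoter entry for Ccl4, so that 3 windows are given. The 250 bases before the RefSeq start (GRCm38.p6) are chr10:118440796-118441045 on the plus strand for Ifng, chr11:83649379-83649628 on the minus strand for Ccl3 and chr1:164935523-164935772 on the minus strand for Xcl1. They are written 5′ to 3′ on the strand of the gene, and capitals mark the NFAT core GGAAA or its reverse complement TTTCC.
Ifng: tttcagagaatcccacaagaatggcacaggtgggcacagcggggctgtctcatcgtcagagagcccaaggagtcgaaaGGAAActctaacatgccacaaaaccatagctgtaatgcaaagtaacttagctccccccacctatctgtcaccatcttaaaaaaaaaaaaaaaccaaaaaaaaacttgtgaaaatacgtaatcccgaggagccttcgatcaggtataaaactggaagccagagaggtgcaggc
Ccl3: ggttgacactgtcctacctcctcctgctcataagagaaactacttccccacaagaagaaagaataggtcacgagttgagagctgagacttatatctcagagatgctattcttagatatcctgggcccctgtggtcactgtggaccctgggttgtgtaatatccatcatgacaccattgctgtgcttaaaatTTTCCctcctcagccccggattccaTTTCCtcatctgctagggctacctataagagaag
Xcl1: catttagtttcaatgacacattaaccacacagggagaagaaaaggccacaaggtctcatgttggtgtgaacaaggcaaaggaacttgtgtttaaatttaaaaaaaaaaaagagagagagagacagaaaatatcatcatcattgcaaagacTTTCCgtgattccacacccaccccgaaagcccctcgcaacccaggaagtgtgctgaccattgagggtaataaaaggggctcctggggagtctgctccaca
The core was found 1 time before Ifng, 172 to 168 bases from the start, 2 times before Ccl3, 59 to 55 and 34 to 30 bases from the start, and 1 time before Xcl1, 100 to 96 bases from the start. Such short letters are common, since 55.7% of 32536 promoters of this length held them on either strand. The AP-1 letters TGANTCA, searched on both strands and found in 6.73% of all promoters, were in none of the 3 windows.

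Most Ifng cells stood at the lower edge of the rule. There were 143 and 125 Ifng cells in WT1 and WT2 and 139 and 163 in KO1 and KO2, and 444 of the 570 (77.9%) had exactly 2 Ifng UMIs. The others were 84 cells with 3 UMIs and 42 cells with 4 or more. The highest counts in a cell were 9 (WT1), 18 (WT2), 10 (KO1) and 9 (KO2) UMIs. Ifng transcripts outside these cells were more numerous than inside them, because the Ifng cells held 1389 (31.7%) of the 4375 Ifng UMIs of the CD8 T cells. The counts thus ran down without a gap from the Ifng cells to the cells left out.

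Depth moved with the choice. The median Ifng cell had 4496, 2617, 4401 and 3409 UMIs in the order WT1, WT2, KO1 and KO2, against 3498, 1995, 3558 and 2895 UMIs for Ifng = 0 cells. Therefore a second comparison set was drawn with 3 Ifng = 0 cells of nearly the same UMI count for each Ifng cell, with medians of 4499, 2616, 4400 and 3407 UMIs, and its values (called matched) stand beside those of the whole set. In droplets, free RNA can give a UMI to a cell that does not express the gene. Of 167 B cells in the same libraries, with median depths from 1446 to 2167 UMIs, 3 had an Ifng UMI (1.80%, 95% exact interval 0.372% to 5.16%) and none had 2, which allows a share of up to 1.80%. None of them had a Ccl4 UMI, whereas 37 (22.2%) had a Gzmb UMI. Intervals and limits cover counting error alone.

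The label of CD8 T cells held. The 6 genes of a T cell list that the rule did not use summed to 4779, 4441, 5130.3 and 5104 plain CPM in WT1, WT2, KO1 and KO2 (UMIs of the summed cells per library, scaled to a common total), with Cd3d as the most abundant, against 4149, 4284, 4737 and 4606 in matched cells. The natural killer cell receptor Ncr1 and the regulatory T cell factor Foxp3 were at 0 in the Ifng cells of each library. These zeros say little, since matched cells also had no Ncr1 UMI in WT1, KO1 and KO2 and no Foxp3 UMI in WT2 and KO2. Cd4 was above 0 in the Ifng cells of each library. Zbtb7b, the most abundant gene of a CD4 T cell list, had 10.2, 24.4, 15.8 and 28.8 plain CPM against 12.4, 16.9, 16.9 and 20.5 in Ifng = 0 cells. A list of natural killer and gamma delta T cell genes summed to 30.5, 41.5, 57.6 and 51.6 plain CPM against 44.3, 61.9, 69.2 and 50.8 in Ifng = 0 cells, and a CD4 T cell list to 16.5, 31.7, 20.2 and 39.4 against 17.1, 20.1, 21.2 and 24.3. None of their tested genes was called (0 of 3 in each list). For the 3 other genes given as markers of these cells, values follow.

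Ccl4, a chemokine that draws macrophages and T cells, had 844, 1100.1, 578 and 461 CPM in the Ifng cells of WT1, WT2, KO1 and KO2 and 73.4, 84.5, 90.8 and 76.5 CPM in their Ifng = 0 cells. CPM without the word plain stands here for the same quantity after TMM scaling of the 8 sums. The 2 sets did not overlap, with 746 ± 285 against 81.3 ± 7.86 CPM (SD, n = 4), a log2 difference of 3.15 and of 3.34 against matched cells. Ccl3, a related inflammatory chemokine, had 193, 283, 296 and 284 CPM against 27.1, 27.4, 30.6 and 31.6 CPM, a log2 difference of 3.16 (matched 3.27). Again each library of Ifng cells lay above each library of Ifng = 0 cells. Xcl1, which attracts cross-presenting dendritic cells, was rare, with 24.6, 4.72, 0 and 7.32 CPM against 2.18, 3.96, 0.597 and 1.05 CPM. It was higher in 3 of 4 libraries and at 0 in KO1, but the UMIs came from 6 cells in all, 2 in WT1 (19 UMIs), 1 in WT2 (2 UMIs) and 3 in KO2 (5 UMIs). Against matched cells, at 1.69, 7.32, 0.480 and 2.03 plain CPM, it was higher in WT1 and KO2 alone. Ccl3, Ccl4 and Xcl1 were named as markers of these cells from the same data, so these values are a description without a test.

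**Figure D1:**
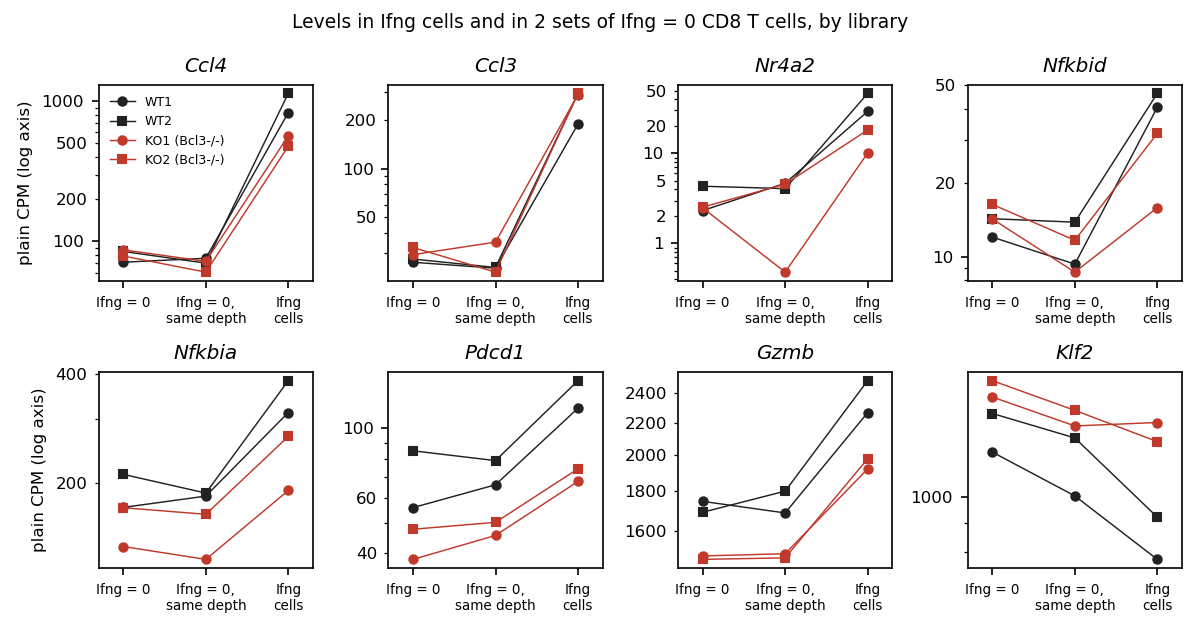
Summed plain CPM (log axis) of 8 genes in all Ifng = 0 cells, in Ifng = 0 cells of the same depth and in Ifng cells, with a line for each of the 4 libraries (black, WT; red, Bcl3-/-; circles, chimera 1; squares, chimera 2). Ccl4, Ccl3, Nr4a2, Nfkbid, Nfkbia, Pdcd1 and Gzmb rise from the middle set to the Ifng cells in each library, and Klf2 falls in 3 of 4.

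Across all genes, 10148 were tested with the library as a block. At an adjusted p under 0.05 (edgeR), 177 genes (1.74%) were higher and 172 genes (1.69%) were lower in Ifng cells, and the median log2 difference of all genes was −0.02. Against matched cells, 48 of 6876 genes (0.698%) were higher and 58 (0.844%) lower. Over all genes, 217 (2.14%) had every Ifng-cell sum above every Ifng = 0 sum and 366 (3.61%) had every one below, and counts of genes without overlap are read against these shares. The number of UMIs in 570 cells limits these tests, and genes with few UMIs were not tested.

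Nr4a2, Egr1 and Nr4a1, immediate early genes of T cell receptor signalling, rose in the Ifng cells. Nr4a2, an orphan nuclear receptor (ENSMUSG00000026826, minus strand, chr2:57106830-57124003), had 29.8, 44.9, 10.3 and 17.6 CPM in Ifng cells of WT1, WT2, KO1 and KO2 against 2.40, 4.30, 2.59 and 2.46 CPM in Ifng = 0 cells, without overlap. Its log2 difference was 3.08 ± 0.292 (SE, adjusted p = 2.90e-23, edgeR), and 2.77 against matched cells, where it passed the low-count filter through the Ifng cells and is given without a test. Egr1, a zinc finger factor, rose from 4.05 ± 0.386 to 21.1 ± 12.9 CPM (SD, n = 4, adjusted p = 3.03e-12, edgeR) and Nr4a1 from 3.54 ± 0.830 to 15.4 ± 10.5 CPM (adjusted p = 3.56e-07, edgeR). Nr4a1 was higher in 3 of 4 libraries, and in KO1 it had 2.94 against 4.31 CPM. Matched cells had 2.12, 4.88, 8.65 and 5.58 plain CPM of Nr4a1 against 12.7, 29.3, 2.88 and 18.2 in Ifng cells, so that KO1 again went the other way. Nr4a1 rested on 36 UMIs in the Ifng cells. Egr1 was higher than in matched cells in each library, with 22.9, 39.1, 15.8 and 7.58 against 3.39, 4.07, 4.32 and 2.54 plain CPM. Nr4a2, Egr1 and Nr4a1 passed the low-count filter on the Ifng = 0 sums alone. Egr2, a related factor induced by calcium signals, passed it through the Ifng cells and is described without a test, at 14.2, 16.5, 7.36 and 8.78 CPM in the Ifng cells of WT1, WT2, KO1 and KO2 against 0.653, 0.347, 0.133 and 1.05 CPM. The other 2 genes of the list, Nr4a3 and Egr3, had too few UMIs. The transcripts were in few cells, since a Nr4a2 UMI was found in 9.79, 4.0, 3.6 and 6.13% of the Ifng cells of WT1, WT2, KO1 and KO2 and in 0.864, 0.832, 0.839 and 0.742% of Ifng = 0 cells. At an equal 1000 UMIs per cell the shares were 3.5, 1.61, 0.719 and 2.45% against 0.244, 0.305, 0.173 and 0.241%. None of the 167 B cells had a Nr4a2 UMI, which allows a share of up to 1.80%. That limit lies above each share of Ifng = 0 cells, so this zero cannot tell them from background.

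Among the AP-1 factors, Junb, Jund and Batf (3 of 6 tested) were higher and none was lower. Junb reached a log2 difference of 0.48 ± 0.0766 (SE, adjusted p = 6.59e-08, edgeR), Batf, which pairs with Jun proteins in effector T cells, 0.39 ± 0.0761 (adjusted p = 2.11e-05, edgeR) and Jund 0.19 ± 0.0434 (adjusted p = 0.000851, edgeR). Their calls stood against matched cells too. Fos, the classical immediate early partner, was at 7.63, 7.32, 5.76 and 15.2 plain CPM in Ifng cells and 8.92, 7.74, 10.5 and 12.9 in Ifng = 0 cells, and the libraries overlapped.

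Of the NF-kB and IkB family, 4 of 12 tested genes were higher, and the 4 were inhibitors or atypical IkB proteins and not NF-kB subunits. Nfkbia, which codes for the classical inhibitor IkB alpha and is itself a target of NF-kB, had 318, 371, 194 and 259 CPM in the Ifng cells of WT1, WT2, KO1 and KO2 against 176, 209.8, 139 and 166 CPM. It was higher in 4 of 4 libraries although the ranges of the sets overlapped, with a log2 difference of 0.71 ± 0.0676 (SE, adjusted p = 2.90e-23, edgeR; matched 0.78, adjusted p = 6.20e-10). Nfkbid, the nuclear protein IkBNS (ENSMUSG00000036931, plus strand, chr7:30421732-30428746), had 41.4, 44.9, 16.2 and 30.7 against 12.4, 14.2, 14.9 and 15.9 CPM, a log2 difference of 1.18 ± 0.194 (SE, adjusted p = 1.55e-07, edgeR) that came to 1.61 against matched cells, where Nfkbid and Nfkbiz passed the low-count filter only with the help of the Ifng cells. Nfkbiz, the nuclear protein IkB zeta, differed by 0.80 ± 0.193 (SE, adjusted p = 0.00209, edgeR), but its adjusted p reached 0.165 without WT1, and its call was also lost without WT2. The subunit genes Rela and Nfkb1 had log2 differences of −0.0458 ± 0.125 and −0.0710 ± 0.127 (SE, adjusted p = 0.948 and 0.911, edgeR).

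Bcl3 (ENSMUSG00000053175, minus strand, chr7:19808462-19822770) was the fourth member of that family called higher. Its 3′ counts were 64.7, 144, 44.1 and 67.3 CPM in the Ifng cells of WT1, WT2, KO1 and KO2 and 28.4, 105, 23.9 and 82.9 CPM in Ifng = 0 cells, a log2 difference of 0.45 ± 0.122 (SE, adjusted p = 0.00898, edgeR) that was 0.52 ± 0.173 against matched cells (SE, adjusted p = 0.178, edgeR), as large but with a wider error and no longer called. The call was also lost in fits without WT1, WT2 or KO1 (highest adjusted p = 0.632, edgeR). It was higher in 3 of 4 libraries. Transcripts were thus counted in the libraries labelled Bcl3-/-. The part of the gene that is deleted is not given in the sources used here, and a 3′ count outside it would not check the genotype, so that the genotype rests on the labels.

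Genes that limit signalling or respond to cytokines followed in part. Of 11 tested, the phosphatase genes Dusp2 and Dusp5, the immediate early gene Ier2 and the STAT5 target Cish were higher, by log2 differences of 0.45 ± 0.0888, 0.48 ± 0.104, 0.28 ± 0.0720 and 0.71 ± 0.203 (SE, adjusted p = 2.95e-05, 0.000266, 0.00549 and 0.0181, edgeR). Against matched cells Cish was not called (adjusted p = 0.0848, edgeR). Its call was lost without WT2 or KO2 and that of Ier2 without KO2 (highest adjusted p = 0.689 and 0.123, edgeR). Of 14 genes of the T cell receptor and its proximal signalling, only Cd69, an early activation receptor that retains cells in tissue, was called. It had 75.1, 77.9, 38.2 and 43.9 against 40.5, 41.3, 23.1 and 22.4 CPM, a log2 difference of 0.88 ± 0.143 (SE, adjusted p = 8.63e-08, edgeR; matched 0.93), and was higher in 4 of 4 libraries.

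Few other cytokine genes accompanied Ifng. Of 10 tested cytokine and death ligand genes, Tnf, Fasl and Tnfsf14 (LIGHT) were higher. Fasl, the ligand of the death receptor Fas, had 77.6, 102, 103 and 65.8 against 50.4, 73.6, 59.2 and 61.8 CPM, a log2 difference of 0.51 ± 0.114 (SE, adjusted p = 0.000442, edgeR) and of 0.79 against matched cells (adjusted p = 0.000155, edgeR). Tnf was scarce, with 11.6, 21.2, 2.94 and 5.85 against 2.98, 4.02, 2.79 and 6.22 CPM, and was higher in 3 of 4 libraries (log2 difference 1.25 ± 0.381, SE, adjusted p = 0.0326, edgeR). Matched cells had 2.97, 3.25, 3.84 and 7.61 plain CPM against 11.4, 22.0, 2.88 and 6.07 plain CPM in Ifng cells, so that Tnf was higher in the WT libraries alone. Il2, whose 3′ end shares 58.3% of its 30-base words with other genes, stood at 13.8 ± 8.55 against 13.1 ± 5.50 CPM (SD, n = 4, adjusted p = 0.959, edgeR). Il3 and Il21 had no UMI in the Ifng cells. Il10 had 11 UMIs there, 10 of them in KO1 (14.4 against 0.191 plain CPM in its Ifng = 0 cells). The chemokine gene Ccl1 had 19 UMIs, all in KO2 (28.8 against 0.253 plain CPM). Il10 and Ccl1 were not tested. The call of Fasl was lost without KO1, and those of Tnf and Tnfsf14 without WT1 or WT2 (highest adjusted p = 0.0898, 0.590 and 0.308, edgeR). Ccl5 (RANTES), by far the most abundant of these chemokine transcripts, differed by −0.29 ± 0.0232 on the log2 scale (SE, adjusted p = 7.84e-32, edgeR) but by 0.0349 from matched cells (adjusted p = 0.788, edgeR).

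Of 16 tested transcription factors that act on Ifng or on effector fate, 4 were higher and none lower. Bhlhe40, which promotes cytokine genes by limiting Il10, differed by 0.37 ± 0.0997 (SE, adjusted p = 0.00808, edgeR; matched 0.53, adjusted p = 0.00504). Irf4, induced in proportion to T cell receptor signal, had 11.6, 11.8, 7.36 and 8.78 against 4.06, 2.57, 4.25 and 4.13 CPM without overlap (adjusted p = 0.0158, edgeR). It rested on 25 UMIs in the Ifng cells and had too few for a test against matched cells. These stood at 4.66, 0.813, 2.88 and 7.10 plain CPM against 11.4, 12.2, 7.20 and 9.10 in Ifng cells. Irf8 and Myc were the others, and neither was called against matched cells (adjusted p = 0.503 and 0.563, edgeR). The calls of Bhlhe40 and Irf4 were lost without WT1, WT2 or KO2, that of Irf8 without WT1 or WT2 and that of Myc without WT2 or KO2 (highest adjusted p = 0.234, 0.219, 0.306 and 0.324, edgeR). Tbx21, the gene of T-bet, was at 139 ± 19.9 CPM against 124 ± 10.5 CPM (SD, n = 4), a difference that did not pass the test (log2 0.15 ± 0.0876, adjusted p = 0.515, edgeR).

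Receptors of activated T cells came next. Of 10 tested inhibitory receptors and the factor Tox, 4 were called, with a median log2 difference of 0.47 over the list. Havcr2 (TIM-3) had 71.2, 54.3, 54.4 and 32.2 CPM in the Ifng cells of WT1, WT2, KO1 and KO2 against 30.4, 27.3, 25.8 and 27.3 CPM, without overlap, a log2 difference of 0.94 ± 0.149 (SE, adjusted p = 4.29e-08, edgeR; matched 0.97). Pdcd1 (PD-1) had 118, 137, 69.1 and 71.7 against 57.8, 84.4, 39.9 and 46.4 CPM and differed by 0.81 ± 0.111 (SE, adjusted p = 7.48e-11, edgeR; matched 0.70). It was higher in 4 of 4 libraries, but both WT libraries lay above both Bcl3-/- libraries in each set of cells, so that the sets overlapped. Lag3, a receptor for MHC class II, differed by 0.47 ± 0.0903 (SE, adjusted p = 2.17e-05, edgeR) and was called against matched cells, while Cd160 was not (adjusted p = 0.657, edgeR). Of 8 costimulatory receptors, Tnfrsf9 (4-1BB) and Icos were higher, by 0.86 ± 0.131 and 0.41 ± 0.0921 (SE, adjusted p = 6.76e-09 and 0.000701, edgeR), and against matched cells as well. Of 14 cytokine receptors, Il2rb and Il12rb2 were higher and the interleukin 7 receptor Il7r was lower (log2 −0.65 ± 0.172, SE, adjusted p = 0.00705, edgeR), of which Il2rb alone was called against matched cells. Without WT1 the calls of Icos, Cd160, Il2rb, Il12rb2 and Il7r were lost (highest adjusted p = 0.0964, 0.744, 0.323, 0.571 and 0.33, edgeR), and the last 3 also without WT2.

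The cytotoxic granule genes split. Gzmb (granzyme B) had 2306, 2408, 1959 and 1908 CPM in the Ifng cells of WT1, WT2, KO1 and KO2 against 1801, 1681, 1548 and 1429 CPM, without overlap. The difference was small and even between libraries, at log2 0.40 ± 0.0318 (SE, adjusted p = 8.39e-34, edgeR) and 0.41 against matched cells. The protease inhibitor genes Serpinb9 and Serpinb6b, which protect the cell from its own granzymes, were higher by 0.45 ± 0.0789 and 0.34 ± 0.0619 (SE, adjusted p = 1.05e-06 and 4.36e-06, edgeR), also against matched cells. Gzma (granzyme A) differed by −0.27 ± 0.0350 (SE, adjusted p = 5.45e-12, edgeR) but by −0.0365 against matched cells (adjusted p = 0.916, edgeR). In all, 4 of 13 granule genes were higher (with Gzmc, whose call was lost without WT1 or KO1, highest adjusted p = 0.395, edgeR) and 2 lower (with Lamp1, lost without WT1, adjusted p = 0.202, edgeR). The list had 5 of 12 higher and none lower against matched cells, where Gzmk and Nkg7 joined Gzmb, Serpinb9 and Serpinb6b.

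None of 12 memory precursor and naive T cell genes was higher, and 5 were lower (among them Tcf7, Id3, Klf2 and S1pr1), with Ccr7 and Dapl1 left out of the count of lower genes because they passed the low-count filter through the Ifng = 0 cells. Ccr7, the receptor that guides naive T cells to lymph nodes, was at 0, 2.36, 0 and 5.85 CPM in Ifng cells of WT1, WT2, KO1 and KO2 against 11, 13.7, 6.17 and 8.07 CPM. The summed level of the 12 genes differed by log2 −0.64, −0.51, −0.15 and −0.26 from Ifng = 0 cells in that order, and by −0.38, −0.39, −0.0313 and −0.0495 from matched cells, where the difference was thus near 0 in both Bcl3-/- libraries. Klf2, a factor that T cell receptor signals switch off and that drives S1pr1, had 791, 892, 1386 and 1211 against 1242, 1401, 1570.4 and 1565 CPM and fell in 4 of 4 libraries (log2 −0.44 ± 0.0366, SE, adjusted p = 6.84e-30, edgeR). The difference was −0.23 ± 0.0483 against matched cells (SE, adjusted p = 0.00245, edgeR), and Klf2 was lower there in 3 of 4 libraries, with 777, 923, 1357 and 1256 against 1006, 1274, 1338 and 1426 plain CPM and KO1 as the exception. Tcf7, the gene of TCF-1, was at 19.4, 21.2, 41.2 and 58.5 CPM against 65.0, 46.4, 56.2 and 57.9 CPM, so that it was lower in both WT libraries and in KO1 and level in KO2. The calls of Tcf7, Id3 and S1pr1 were lost without WT1 or WT2 (highest adjusted p = 0.478, 0.482 and 0.354, edgeR). Id3 had too few UMIs for a test against matched cells, where Klf2 was called and S1pr1 and Tcf7 were not, and the adjusted p of Tcf7 was 0.516 there (edgeR).

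Cell cycle genes were higher than in all Ifng = 0 cells but not called against Ifng = 0 cells of matched depth. All 12 genes of a G2 and mitosis list were higher than in Ifng = 0 cells, with a median log2 difference of 0.89, and so were 4 of 12 S phase genes. Ube2c, an enzyme that marks cyclins for destruction at the end of mitosis, had 153, 120.4, 69.1 and 71.7 against 54.8, 40.5, 40.5 and 47.2 CPM (log2 1.14 ± 0.112, SE, adjusted p = 6.85e-22, edgeR). Of the 12 largest rises that the naming rule allowed, 9 were cell cycle genes (Cenpf, Ube2c, Plk1, Cdk1, Ccna2, Ccnb1, Aurkb, Tk1 and Tpx2), and the other 3 were Nfkbid, Havcr2 and Gldc, a glycine cleavage enzyme. Cenpf shares 45.4% of its 3′ words with other genes and its counts are uncertain. Against matched cells none of the 24 cell cycle genes was called. The median of the G2 and mitosis list came to 0.18 and that of the S phase list to −0.24. Ube2c then differed by 0.34 ± 0.126 (SE, adjusted p = 0.300, edgeR), and Top2a by 0.0288 ± 0.122. The same held for glycolysis, with 4 of 16 genes higher and 0 of 15 against matched cells, and for ribosome biogenesis and Myc targets, with 2 of 16 and 0 of 15. Depth and cell cycle cannot be told apart in the whole set. Without WT1 the calls of Ccnb2, Cenpe, Tpx2 and Gldc were lost as well (highest adjusted p = 0.151, 0.180, 0.0709 and 0.0964, edgeR).

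**Figure D2:**
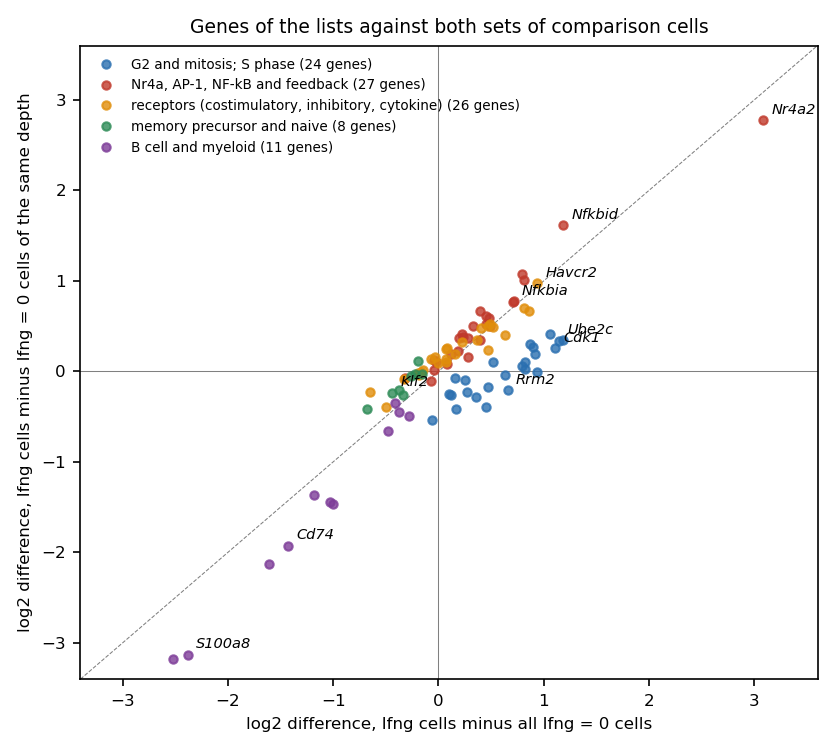
Log2 difference of the genes of the lists between Ifng cells and all Ifng = 0 cells (horizontal axis) against that between Ifng cells and Ifng = 0 cells of the same depth (vertical axis), with the dashed line marking equal values and colours marking gene groups. Signalling genes and receptors lie near the line, whereas most cell cycle genes lie to the right of 0 and below the line.

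Of 11 terminal effector genes, Lgals1 was higher and S1pr5, Klrk1 and Itgb1 were lower, of which Itgb1 alone was called against matched cells. None of 18 interferon-stimulated genes and none of 6 heat shock genes was called, and against matched cells the interferon-stimulated gene Gbp4 was. The calls of S1pr5 and Klrk1 were lost without WT1 and that of Itgb1 without KO2 (highest adjusted p = 0.435, 0.579 and 0.0522, edgeR).

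The largest falls were transcripts of other cell types. The naming rule gave 12 falls, of which Hbb-bs passed the low-count filter only through the Ifng = 0 cells and is not read as a fall. The other 11 were Ngp, S100a9, S100a8, Camp, Chil3, Retnlg, Wfdc17, Lyz2, Ccl6, Cd74 and Tyrobp, genes of neutrophils, other myeloid cells and antigen-presenting cells. S100a8 (calgranulin A of neutrophils) had 194, 85.0, 268 and 148 CPM in Ifng cells against 746, 484, 1304 and 1141 CPM, and Cd74, the invariant chain of MHC class II, 169.5, 125, 143 and 98 against 324, 347, 422 and 370 CPM. The 10 genes of the myeloid list summed to 912, 691, 942 and 802 plain CPM in Ifng cells against 2079.7, 1731, 3195 and 2821, with 7 of 9 tested genes lower, S100a8 as the most abundant gene in Ifng = 0 cells and Cd14 at 0 in the Ifng cells of 3 libraries. The 7 genes of the B cell list outside the rule summed to 328, 269, 327 and 221 against 582, 651, 708 and 667 plain CPM, with 3 of 6 tested genes lower and Cd74 as the most abundant in each library. The 5 erythroid genes summed to 6.36, 7.32, 0 and 40.9 against 69.1, 104, 12.2 and 230.4 plain CPM, and the 4 that were tested passed the low-count filter through the Ifng = 0 cells. In matched cells the myeloid list summed to 1962, 1364, 5447 and 6299 plain CPM, above the whole set in KO1 and KO2. The B cell list summed to 637, 1000, 930 and 1119 plain CPM there, and the erythroid list to 5.51, 12.2, 0.480 and 1608. A small number of Ifng = 0 cells carried these transcripts: 156 of 19113 had at least 20 UMIs of S100a8 and S100a9 and held 80.0% of the UMIs of these genes, 126 had at least 20 UMIs of Cd74 and held 63.4% of them, and 5 cells held 86.2% of the globin UMIs. None of the 570 Ifng cells reached such counts. Without those Ifng = 0 cells, a setting added after seeing the data, no gene of the B cell, myeloid and erythroid lists was called and the number of lower genes went from 172 to 88, while 177 were higher. S100a8 then differed by −0.11 and Cd74 by −0.00583 on the log2 scale. This setting removes cells from the Ifng = 0 set alone, by counts of S100a8, S100a9, Cd74 and globin genes. The loss of these falls and calls thus follows from the filter and is not read as a result. Hbb-bs and Lyz2 share 41.3% and 34.7% of their 3′ words with other genes.

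Mean levels of Ccl4, Ccl3, Nr4a2 and Egr1 were higher with more Ifng UMIs. Over cells with 0, 1, 2 and at least 3 Ifng UMIs, Ccl4 had means of 80.4 ± 7.17, 114 ± 34.3, 237 ± 70.7 and 2230.2 ± 709 plain CPM (SD over the 4 libraries). Cells just inside the rule, with 2 UMIs, thus lay at 237 and those just outside it, with 1 UMI, at 114. Ccl3 had 28.9 ± 2.69, 36.3 ± 5.94, 65.8 ± 33.2 and 912 ± 399.8, Nr4a2 2.91 ± 0.943, 3.58 ± 1.31, 8.54 ± 5.18 and 72.4 ± 48.2 and Egr1 4.02 ± 0.458, 5.71 ± 1.34, 8.90 ± 4.94 and 54.6 ± 33.8 plain CPM over the same bins. For these genes the step came between 2 and 3 UMIs, where the ranges of the libraries did not overlap. Nr4a1 had 3.51 ± 0.841, 3.08 ± 1.86, 3.67 ± 5.25 and 49.2 ± 36.7 plain CPM, so that its mean was higher in the last bin alone, and Xcl1 1.93 ± 1.5, 8.62 ± 15.3, 4.86 ± 8.52 and 22.7 ± 18.3 plain CPM, without a steady order. Nfkbia had 171 ± 31.8, 174 ± 39.2, 273 ± 87.8 and 345 ± 87.9 plain CPM, and Gzmb 1597 ± 140.1, 1871 ± 161, 2198 ± 293 and 2088 ± 351. Median UMIs per cell also went up over the bins, from 1995 to 3558 in the libraries at 0 Ifng UMIs to 3756 to 4739 at 3 or more, and the part of depth in these levels was not tested. Klf2 went down, with 1431 ± 173, 1289 ± 166, 1138 ± 247 and 906 ± 324 plain CPM, and so did Ccl5, with 34896 ± 8908, 33335 ± 9591, 30311 ± 10075 and 27786 ± 8281 plain CPM, a gene whose log2 difference from matched cells was 0.0349. The bin of at least 3 UMIs held 126 cells (35, 31, 31 and 29 in the same order of libraries), and the same Ifng counts define the bins and the cells, so these are descriptions.

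**Figure D3:**
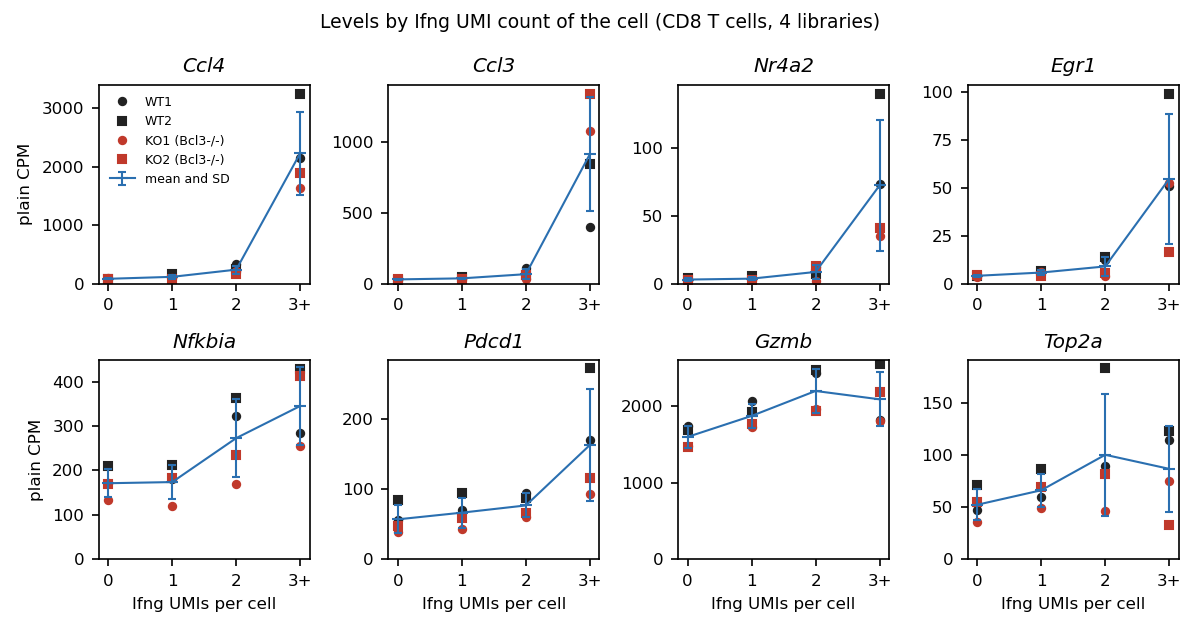
Summed plain CPM of 8 genes in CD8 T cells with 0, 1, 2 and at least 3 Ifng UMIs, with a point for each library and a blue line for the mean and SD of the 4 libraries. Ccl4, Ccl3, Nr4a2 and Egr1 step up in the last bin, Nfkbia steps up at 2 UMIs, and Top2a overlaps between bins.

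Within the Ifng cells, chemokine transcripts were concentrated in few cells. Of the 570, 351 (61.6%) had no Ccl3 or Ccl4 UMI, 164 had 1 to 4, and 55 (9.65%) had 5 or more, namely 22, 13, 9 and 11 cells in the order WT1, WT2, KO1 and KO2. These classes were set after the values were seen and are described without a test. The tenth of the Ifng cells with most chemokine UMIs held 82.3%, 91.0%, 90.9% and 91.9% of all Ccl3 and Ccl4 UMIs in WT1, WT2, KO1 and KO2, and the highest counts in a cell were 227, 118, 332 and 157. Among Ifng = 0 cells, 89 of 19113 (0.466%) had 5 or more. Of the 186 CD8 T cells with 5 or more, the Ifng cells were 29.6%, so most cells with abundant chemokine transcripts lay outside the rule.

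The 55 chemokine-high Ifng cells held most of the Egr2 and Xcl1 transcripts, and their part of other early gene transcripts differed between libraries. They had 28 of the 29 Egr2 UMIs, 24 of the 26 Xcl1 UMIs and 16 of the 24 Tnf UMIs of all Ifng cells. Of the Nr4a2 UMIs they had 18 of 23 and 19 of 19 in WT1 and WT2 but 3 of 7 and 2 of 12 in KO1 and KO2, and of the Nfkbid UMIs 24 of 32 and 13 of 19 but 4 of 11 and 1 of 21. Of the Egr1 UMIs they had 11 of 18, 15 of 16, 3 of 11 and 4 of 5 in the same order, without such a split by genotype. Their mean Ifng count was 3.68, 5.85, 4.11 and 3.45 UMIs per cell in WT1, WT2, KO1 and KO2, against 2.16 to 2.23 in cells without Ccl3 and Ccl4. Over the classes of 0, 1 to 4 and 5 or more UMIs, Pdcd1 had means of 83.5, 89.7 and 227 plain CPM, Tcf7 48.5, 17.9 and 7.10, and Klf2 1090, 1173 and 761. Gzmb stayed within 2020.1 to 2320.3 plain CPM. Tcf7 in the highest class rests on 2 UMIs. The 89 chemokine-high Ifng = 0 cells differed from them in part: an Egr2 UMI was found in 3 of 89 against 14 of 55 cells, a Nr4a2 UMI in 13 against 19, a Tnf UMI in 4 against 10 and a Nfkbid UMI in 20 against 19. These Ifng = 0 cells were shallower, with medians of 4319.5, 2330, 3524 and 3045.5 against 4753.5, 3989, 4135 and 3618 UMIs. Their median Ccl4 count was 3.5, 8, 5.5 and 8 against 14, 22, 12 and 14 UMIs per cell. The part of depth and chemokine level in these shares was not tested.

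**Figure D4:**
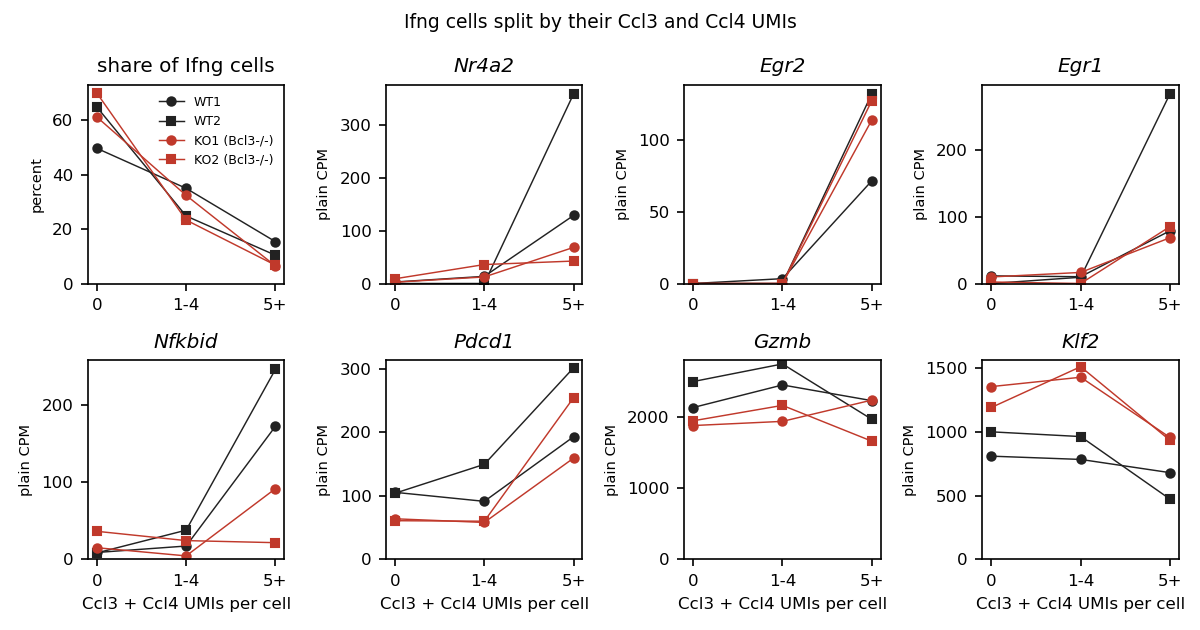
Ifng cells of each library split by their summed Ccl3 and Ccl4 UMIs (0, 1 to 4, 5 or more), with the share of Ifng cells in each class (percent) and the level of 7 genes in plain CPM. Nr4a2, Egr2, Egr1 and Pdcd1 are highest in the class of 5 or more in each library, Nfkbid in 3 of 4, and Gzmb shows no common direction.

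A fit without the chemokine-high cells, in Ifng and Ifng = 0 cells alike, was also added after seeing the data. It removes cells by counts that differ between the sets, 9.65% of Ifng cells against 0.466% of Ifng = 0 cells, so that smaller differences of Ccl3, Ccl4 and the early genes that these cells hold follow from the filter and are not read as a result. The fit called 118 genes higher and 119 lower. Nr4a2 (log2 1.75, adjusted p = 0.0137, edgeR), Nfkbia, Junb, Gzmb, Cd69, Havcr2, Pdcd1 and Tnfrsf9 were among the higher genes, the last 7 with log2 differences of 0.65, 0.49, 0.42, 0.80, 0.75, 0.59 and 0.72. Egr1, Nfkbid and Tnf had adjusted p-values of 0.346, 0.692 and 0.967 there (edgeR).

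The order of the libraries by their share of Ifng cells changed when cells were brought to an equal depth. Ifng cells made up 3.17% of the gated CD8 T cells of WT1 (95% exact interval 2.68% to 3.72%), 1.71% of WT2 (1.43% to 2.04%), 2.86% of KO1 (2.41% to 3.36%) and 2.72% of KO2 (2.32% to 3.17%). The means were 2.44% ± 1.03 in WT and 2.79% ± 0.0949 in Bcl3-/- (SD, n = 2), a difference of 0.348 percentage points (2-sided exact permutation test, p = 1, where 0.333 is the smallest p that 2 against 2 libraries allow). The share was lower in Bcl3-/- by 0.313 points in chimera 1 and higher by 1.01 points in chimera 2. WT2, with the lowest share, was also the shallowest library. With each cell thinned to 1000 UMIs, the shares with at least 2 Ifng UMIs were 0.289% (WT1), 0.406% (WT2), 0.268% (KO1) and 0.201% (KO2). After the same thinning, a cell had an Ifng UMI in 5.56% (WT1), 6.47% (WT2), 4.41% (KO1) and 6.04% (KO2) of cases. In both, WT2 had the highest share instead of the lowest. The thinned shares with at least 2 UMIs lay lower in both Bcl3-/- libraries than in both WT libraries (exact permutation test, p = 0.333, the smallest that the design allows), but rested on 12 to 29 cells a library, and their exact intervals overlapped. Those with at least 1 UMI overlapped between genotypes (exact permutation test, p = 0.667). Within the chimeras, however, Bcl3-/- minus WT was −1.15 points in chimera 1 and −0.438 points in chimera 2.

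Ifng cells of the 2 genotypes were compared over 5998 genes. Without a block, 40 genes (0.667%) were higher and 28 genes (0.467%) lower in Bcl3-/- (edgeR). With the chimera as a block, since both genotypes share an animal, 120 (2.00%) were higher and 113 (1.88%) lower. These calls need each WT library: without WT1 or without WT2, no gene was called in either direction (edgeR, 404 and 347 genes at an unadjusted p under 0.05; DESeq2 on all libraries called 16 higher and 6 lower). Fits without KO1 or without KO2 called 38 and 43 genes higher and 29 and 36 lower.

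The summed level of Ccl4 was lower in the Bcl3-/- Ifng cells. The Ifng cells had 865 and 1141 CPM in WT1 and WT2 and 598 and 480.4 CPM in KO1 and KO2, so that both Bcl3-/- libraries lay below both WT libraries (log2 −0.89 ± 0.166, SE, adjusted p = 0.00512, edgeR). Of all 5998 genes, 19.9% had both Bcl3-/- libraries below both WT libraries, so that this order alone is common. In these CPM the TMM scaling was set over the 4 sums of Ifng cells. Ccl3 had 198 and 294 CPM in WT and 306 and 296 CPM in Bcl3-/- (log2 0.33 ± 0.180, SE, adjusted p = 0.561, edgeR). Single cells weighed heavily on both genes. The cell with most Ccl3 and Ccl4 UMIs of each library held 33.9, 18.7, 51.4 and 32.4% of the Ccl4 UMIs and 4.03, 25.8, 64.7 and 28.4% of the Ccl3 UMIs in WT1, WT2, KO1 and KO2. Without it, Ccl4 was at 550.4, 937, 278 and 325 plain CPM, and the libraries kept their separation by genotype. Ccl3 then went from 189, 293, 289.6 and 294 to 183, 220.1, 103 and 212 plain CPM, so that KO1 was the lowest library and KO2 lay between the WT libraries. A Ccl3 UMI was found in 30.8, 18.4, 12.9 and 13.5% of the Ifng cells, lower in both Bcl3-/- libraries, and in 11.2, 8.06, 8.63 and 5.52% at an equal 1000 UMIs per cell, where the genotypes overlapped. Within each chimera the Bcl3-/- library had the lower share there too. A Ccl4 UMI was found in 39.2, 29.6, 36.0 and 25.8% of the Ifng cells in the same order, a share that overlapped between genotypes at the depth of each library. Within each chimera this share was lower in the Bcl3-/- library. At an equal 1000 UMIs per cell it was 23.8, 17.7, 13.7 and 11%, so that both Bcl3-/- libraries lay below both WT libraries, with exact 95% intervals from 17.1% to 31.6%, 11.5% to 25.6%, 8.43% to 20.5% and 6.68% to 16.9%. The intervals overlapped between genotypes within each chimera, while those of WT1 and KO2, from different chimeras, did not. They cover counting error over cells of single libraries and carry no test of the genotype. Within the classes by Ccl3 and Ccl4 UMIs, Ccl4 overlapped between genotypes. In WT1, WT2, KO1 and KO2 it had 4259, 8159, 7656 and 5757 plain CPM at 5 or more UMIs and 193, 318, 236 and 263 at 1 to 4. The class of 5 or more made up 15.4, 10.4, 6.47 and 6.75% of the Ifng cells. Ccl4 itself sets these classes, so these values are a description.

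The largest rises by the naming rule were Mir142hg (log2 2.87 ± 0.380), Rps18-ps3, Xiap (log2 1.74 ± 0.420), Rnaset2b and Rnaset2a, and the largest falls were Gbp6, Serpine2 (log2 −2.55 ± 0.527), Jun (log2 −2.21 ± 0.466), Hist1h2ap and the glycolysis enzyme Pgk1 (log2 −1.79 ± 0.276, all SE). Each of these calls was lost without WT1 and without WT2, but the sign held. On leaving out 1 library, log2 differences ran from 2.66 to 3.21 for Mir142hg, 1.24 to 2.12 for Xiap, −2.52 to −1.93 for Jun, −3.10 to −1.5 for Serpine2 and −2.22 to −1.17 for Pgk1. In the Ifng = 0 cells, most of these genes stood in the same order by genotype, with 14.9 and 12.7 CPM in WT against 73.6 and 84.1 CPM in Bcl3-/- for Mir142hg, 17.6 and 18.4 against 29.7 and 36.2 for Xiap, 23.9 and 28.0 against 12 and 7.84 for Jun, 194 and 103 against 73.4 and 35.0 for Pgk1 and 696 and 538 against 294 and 144 for Hist1h2ap. Serpine2, at 6.75 and 5.85 against 2.85 and 6.18 CPM there, overlapped between genotypes. The interaction was called for none of these 10 genes (adjusted p from 0.144 to 0.987, edgeR). Counts of Rps18-ps3, Rnaset2a, Rnaset2b, Gbp6 and Hist1h2ap are uncertain, because 80.8% to 100% of their 3′ words occur in other genes. Mir142hg, Rps18-ps3 and Xiap in WT and Gbp6, Serpine2 and Jun in Bcl3-/- had a library under 10 CPM. They passed the low-count filter only with the help of the other genotype, so that their differences are a description without a test. Of 11 terminal effector genes, 3 were higher and none lower without the block and 7 were higher with it. Cx3cr1, the fractalkine receptor of terminal effectors, had 38.5 and 34.3 CPM in WT and 97.4 and 70.1 CPM in Bcl3-/- Ifng cells (log2 1.18 ± 0.270, SE, adjusted p = 0.0275, edgeR), and Zeb2, a factor of terminal differentiation, 25.2 and 34.3 against 74.6 and 68.6 CPM (adjusted p = 0.0231, edgeR). Ifng = 0 cells had 54.8 and 44.9 against 110.5 and 78.2 CPM of Cx3cr1 and 45.3 and 45.8 against 74.7 and 74.4 CPM of Zeb2, and the interaction was not called for either (adjusted p = 0.976 and 0.922, edgeR). Of the memory precursor and naive genes, Klf2 was higher too, with 810 and 926 against 1433 and 1263 CPM (adjusted p = 0.0384, edgeR). Tcf7 and S1pr1 were higher with the block alone (adjusted p = 0.0155 and 0.0389, edgeR). Of 12 G2 and mitosis genes, 4 were lower without the block and 7 with it, and the median log2 difference was −0.90 against 0.00215 for all genes. Of 13 interferon-stimulated genes, Isg15 and Igtp were lower (adjusted p = 0.0487 and 0.0353, edgeR), and 4 were lower with the block. Ifng = 0 cells had 94.3 and 113 against 71.3 and 76.7 CPM of Isg15 and 283 and 331 against 176 and 194 CPM of Igtp.

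Several genes that marked the Ifng cells differed by genotype with the block alone. Nr4a2 had 30.5 and 46.5 CPM in WT and 10.7 and 18.3 CPM in Bcl3-/- Ifng cells (adjusted p = 0.176 without and 0.0249 with the block, edgeR). With 7 UMIs in KO1 it passed the low-count filter only with the help of the WT libraries, so that its difference is a description. In WT2 1 cell held 9 of the 19 Nr4a2 UMIs, without which WT2 went from 46.4 to 24.7 plain CPM, and the shares of Ifng cells with a Nr4a2 UMI, given above, overlapped between genotypes. Nfkbia had 326 and 385 against 201 and 269.9 CPM (adjusted p = 0.133 and 0.00138, edgeR), Pdcd1 121 and 142 against 71.5 and 74.7 CPM (adjusted p = 0.0637 and 0.00914, edgeR) and Cd69 76.9 and 80.8 against 39.6 and 45.7 CPM (adjusted p = 0.113 and 0.0266, edgeR). In Ifng = 0 cells, WT and Bcl3-/- libraries had 2.39 and 4.31 against 2.59 and 2.45 CPM of Nr4a2, 176 and 210.4 against 139 and 165 CPM of Nfkbia, 57.7 and 84.6 against 39.9 and 46.2 CPM of Pdcd1 and 40.5 and 41.4 against 23.1 and 22.2 CPM of Cd69. Nfkbia, Pdcd1 and Cd69 thus stood at lower levels in both Bcl3-/- libraries there too, and the interaction was called for none of the 4 (adjusted p = 0.950, 0.931, 0.977 and 1.00, edgeR). Gzmb differed by log2 −0.27 with the block (adjusted p = 0.0255, edgeR).

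The interaction asks whether the difference between Ifng and Ifng = 0 cells depends on the genotype. It was tested over 10757 genes, of which 3 (0.0279%) had a more positive difference in Bcl3-/- cells (Ctla2a, Klf2 and Ccl5) and 3 (0.0279%) a more negative one (Ccl4, Tubb5 and Ifitm1, edgeR). Ccl4 went from 73.3, 84.7, 90.8 and 76.0 CPM in the Ifng = 0 cells of WT1, WT2, KO1 and KO2 to 840.4, 1095, 581 and 462 CPM in Ifng cells, with scaling over all 8 sums. The genotypes were thus near each other in Ifng = 0 cells and apart in Ifng cells (interaction log2 −0.96 ± 0.0963, SE, adjusted p = 2.97e-19, edgeR). Without the cell with most chemokine UMIs in each library the interaction was −1.31, against matched cells it was −0.69 (adjusted p = 0.0178, edgeR), and without chemokine-high cells it was −0.40 (adjusted p = 1.00, edgeR). Klf2 fell from 1242, 1405, 1571 and 1556 CPM to 788, 889, 1393 and 1213 CPM in the same order, with the smaller falls in KO1 and KO2 (interaction log2 0.39 ± 0.0746, SE, adjusted p = 0.000438, edgeR). Tubb5, a tubulin of dividing cells, went from 528, 476, 461 and 454 CPM to 724, 675, 478 and 473 CPM (interaction log2 −0.42 ± 0.0905, SE, adjusted p = 0.00620, edgeR), and its call was lost against matched cells (adjusted p = 0.214, edgeR). The call of Ccl4 stood in each fit without 1 library (highest adjusted p = 3.37e-09, edgeR), and that of Klf2 was lost without WT1, WT2 or KO1 and that of Tubb5 without WT1, WT2 or KO2 (highest adjusted p = 0.380 and 0.306, edgeR). DESeq2 called Ccl4 alone of the 6.

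**Figure D5:**
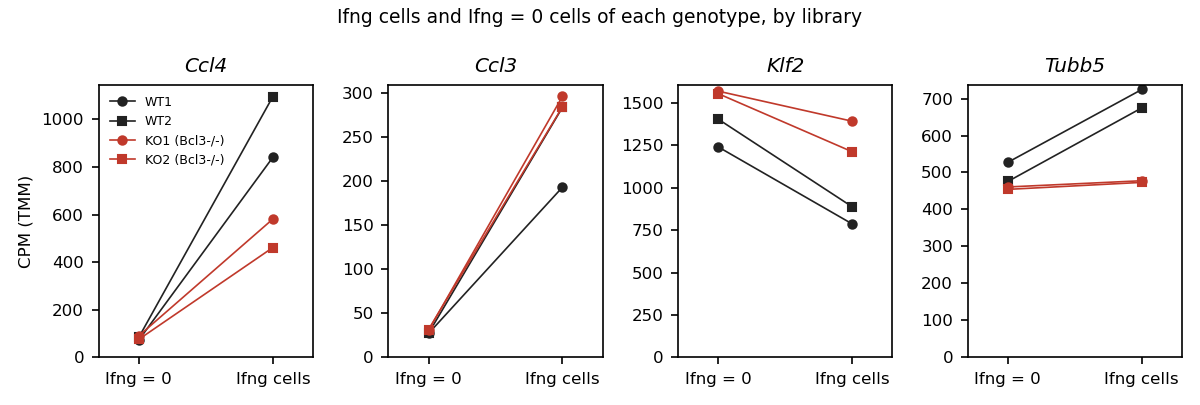
CPM (TMM scaling over all 8 sums) of Ccl4, Ccl3, Klf2 and Tubb5 in the Ifng = 0 cells and Ifng cells of each library (black, WT; red, Bcl3-/-). For Ccl4 the 4 libraries start between 73.3 and 90.8 CPM and end at 840 and 1095 CPM in WT and 581 and 462 CPM in Bcl3-/-, while for Ccl3 WT2 and KO2 end level at 283 and 284 CPM, between WT1 at 193 and KO1 at 296 CPM, where 1 cell holds 64.7% of the Ccl3 UMIs of the Ifng cells.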

How the data were processed

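The files hold raw UMI counts per gene and cell for 4 libraries made with the 10x 3′ v2 chemistry. The authors deposited these counts as Cell Ranger matrices, without normalization, and the submitters' processing notes name Cell Ranger 2.2.0, bcl2fastq 2.17 and mm10; the annotation release is not given in the sources used here. Cells were filtered as the opening states. No doublet caller was run, and the deepest 5% of cells were left out as an alternative.

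UMIs of Ifng cells and of Ifng = 0 cells were summed per library, giving 8 sums, and genes were tested with the quasi-likelihood test of edgeR 4.0.16 in R 4.3.3 after TMM scaling and the edgeR filter on low counts, with Benjamini-Hochberg adjustment over all genes of a fit. Ifng cells were compared with Ifng = 0 cells with the library as a block. Genotypes were compared without a block and, as an alternative, with the chimera as a replicate block, taking both libraries of a number to come from 1 animal. Over 2752 genes the deviations of same-numbered libraries correlated at r = 0.249. Each edgeR p-value rests on sums of these 4 libraries, with the spread of a gene partly borrowed from other genes. It is therefore no measure of the spread of that gene alone, and Ifitm1 was called with opposite signs in the interaction of the chimeras. Sums also do not show how UMIs lie over cells, and 1 cell of KO1 held 51.4% of its Ccl4 UMIs. Plain CPM are UMIs of summed cells scaled to a common total without TMM, with the genes of the rule left out of the total. DESeq2 1.42.0 was the other count test. On simulated data, 74% of genes changed by 1 on the log2 scale and 92% of those changed by 2 were recovered for the comparison of Ifng with Ifng = 0 cells, 69% and 98% for the genotypes and 28% and 66% for the interaction.

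The members, the gene lists and the tests were chosen with earlier results of these data known. The genes named outside the lists were, among called genes with the same direction in each library or chimera, the 12 with the largest rise and the 12 with the largest fall and a mean of at least 20 CPM (5, 5 and 10 CPM for the genotype and the interaction), leaving out T cell receptor and immunoglobulin segments, Xist, Y-linked and unnamed genes; any list member that passed the filter could be named. For each gene the share of the 30-base words in its last 300 bases that other genes also hold was counted. Some members of the lists are not reported here.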

Additional observations from a re-analysis of the deposited data

Results flagged for a closer look

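These 6 genes were picked out because the difference between Ifng cells and Ifng = 0 cells was tested to differ between the genotypes (interaction, adjusted p under 0.05, edgeR). Ccl4 had an interaction of −0.96 on the log2 scale (adjusted p = 2.97e-19, edgeR), made up of −0.84 in chimera 1 and −1.09 in chimera 2. Klf2 had 0.39 (adjusted p = 0.000438, edgeR) and Tubb5, a tubulin, −0.42 (adjusted p = 0.00620, edgeR), both with the same sign in both chimeras. Ctla2a, a cathepsin inhibitor, had 0.42 (adjusted p = 0.000485, edgeR), with 1068, 732, 1019.8 and 620.1 CPM in the Ifng = 0 cells of WT1, WT2, KO1 and KO2 and 847, 592, 1047 and 700.4 CPM in their Ifng cells, and was not called against cells of matched depth (adjusted p = 0.833, edgeR). Ccl5 had 0.25 (adjusted p = 0.00138, edgeR) and 0.17 against matched cells, where it was called (adjusted p = 0.0178, edgeR). The calls of Ctla2a and Ccl5 were lost without WT1. Ifitm1, an interferon-induced membrane protein, had −0.96 (adjusted p = 0.000438, edgeR), but −2.30 in chimera 1 and 1.66 in chimera 2, with 296, 40.0, 51.8 and 105 CPM in the Ifng cells of WT1, WT2, KO1 and KO2 and 120.5, 68.6, 105 and 56.1 CPM in their Ifng = 0 cells. It is outside the naming rule and was named after its values were seen.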

How the results depend on the processing

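Of Ifng against Ifng = 0 cells, the counts of genes higher and lower were 177 and 172, and came to 95 and 55 with DESeq2, 9 and 33 after thinning to 1000 UMIs, 50 and 122 for cells of at least 3 Ifng UMIs, 293 and 270 for cells of at least 1, 50 and 56 without the deepest 5% of cells, 48 and 58 against matched cells and 9 and 18 with no replicate block. The lower genes numbered 337 without the limit on B cell and myeloid UMIs and 88 without Ifng = 0 cells rich in S100a8, Cd74 or globin UMIs. Leaving out 1 library gave 75 to 155 higher and 79 to 134 lower genes. For the genotype, 40 and 28 genes came to 16 and 6 with DESeq2, 18 and 9 without the low-count filter, 13 and 12 after thinning, 11 and 4 without the deepest cells, 26 and 15 without the Ifng cell with most chemokine UMIs in each library, 120 and 113 with the replicate block, and 0 and 0 for cells of at least 3 Ifng UMIs (edgeR, 208 at an unadjusted p under 0.05). For cells of at least 1 Ifng UMI, 14 were lower. Leaving out 1 library, where the lone library of a genotype is assumed to vary like the other genotype, gave 0 to 43 higher and 0 to 36 lower. For the interaction, 3 and 3 genes came to 0 and 1 with DESeq2 (103 at an unadjusted p under 0.05), 0 and 1 after thinning and 10 and 12 for cells of at least 1 Ifng UMI. It had 1 higher gene for cells of at least 3 UMIs and 1 without chemokine-high cells, 0 higher without the deepest cells, 14 lower against matched cells and 5 lower without the B cell and myeloid limit. Leaving out 1 library gave 0 to 3 higher and 1 to 4 lower genes. The difference in the share of Ifng cells, 0.348 points, was −0.0396 for cells of at least 3 UMIs, −0.114 after thinning and −0.796 after thinning with at least 1 UMI, and ran from −0.380 to 1.08 on leaving out 1 library.

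Named genes changed sign as follows, and the cause was not tested. Against matched cells Aurkb came to −0.00234, Birc5 to −0.0355, Ccl5 to 0.0349, Ccnb2 to −0.168, Eif5a to −0.0268, Hmgb2 to −0.0922, Ran to −0.0456 and Rrm2 to −0.208 on the log2 scale. For cells of at least 3 Ifng UMIs Aldoa came to −0.0254, Ccnb2 to −0.0351 and Lgals1 to −0.0150, without the deepest cells Ccnb2 to −0.115, after thinning Cd160 to −0.0672 and without chemokine-high cells Tnf to −0.162. Without the Ifng = 0 cells rich in transcripts of other cells, Camp came to 0.129, Cst3 to 0.108, Fcer1g to 0.221, Hba-a1 to 0.187, Hbb-bs to 0.300 and Ngp to 0.215. That filter takes cells from the Ifng = 0 set alone by transcripts of this kind, so that these changes are not read as a result. The interaction of Ifitm1 ran from −1.97 to 0.742 on leaving out 1 library, with the last without WT replicate 1. Settings on B cell and myeloid limits, chemokine-high cells, the top cell, cells rich in other transcripts and thinning with at least 1 UMI were chosen after seeing the data. Genes with few UMIs in the Ifng cells could not be tested at this depth.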
